A study of Mus musculus with 6 samples.

Results

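The genes described here are 9 receptors through which macrophages and other leukocytes sense chemokines and other chemoattractants: Ccr1, Ccr2, Cx3cr1, Cxcr4, Fpr1, Fpr2, Cmklr1, Ccrl2 and Ptafr. They were taken by symbol from a table of 55291 genes, of which 18659 had at least 1 count, and all 9 were found. RNA came from bone marrow derived macrophages (BMDMs), primary macrophages grown from mouse bone marrow for 7 days in L929-conditioned medium, which supplies M-CSF. The groups were 3 WT and 3 PYK2 KO mice, all on the C57BL/6 strain, with 1 library per mouse, and no polarizing cytokine or chemoattractant was named for these samples. The PYK2 KO mice were PYK2 -/- animals that lack the kinase in every tissue, so the precursor cells were also without it, and the sources give neither age nor sex for the mice behind these cultures.

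Chemoattractant receptors are seven-transmembrane proteins coupled mainly to Gi proteins. Ligand binding releases G protein beta-gamma subunits, which activate phospholipase C beta and PI3K gamma and, through Rac, the actin cytoskeleton, and arrestins and endosomal sorting then take the receptor off the surface. PYK2, a cytoplasmic tyrosine kinase related to FAK, is activated downstream of several of these receptors. The question asked of the RNA was whether the receptor transcripts themselves differed between the genotypes, since the study examined the receptors CCR2 and CXCR4 as proteins.

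In all 5 receptor genes with enough counts to be tested, no difference between WT and PYK2 KO BMDMs passed the threshold, and no receptor was at the floor of 3 counts or fewer in every library. The transcripts of Fpr1 and Fpr2, which encode formyl peptide receptors, were low, and after scaling to library size all 3 PYK2 KO values lay above all 3 WT values. The genotypes did not overlap in 9.78% of genes with similarly low counts, and neither gene passed a test. Ccr2 and Cx3cr1 were as low, and their genotypes overlapped. These are differences in RNA of whole cultures, in which fewer cells of a type and less RNA per cell cannot be told apart.

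Levels are given below as normalized CPM, the counts per 1000000 counts on tested genes after TMM scaling. Totals ran from 2857097 to 3917207 counts per library. Ptk2b, the deleted gene, had 568 to 737 counts in WT and 64 to 71 in PYK2 KO libraries. The variance between pairs of libraries within a genotype was 2.15 to 4.79 times what sampling alone gives (chi-square over its degrees of freedom), so no pair was a duplicate. The first principal component of the spread within genotypes held 31.1% of it and placed WT 1 (15.0) and PYK2 KO 4 (14.1) apart from WT 6 (-12.6) and PYK2 KO 2 (-13.6). A fit with this component as a covariate was therefore set beside the fit on genotype alone. The macrophage genes Adgre1, Cd68, Csf1r, Itgam, Lyz2, Mertk, Fcgr1 and Cd14 all passed the filter, with 549 to 486352 counts over the 6 libraries, and none was called. Their summed level was 29150 to 29900 CPM (WT) and 30330 to 31330 CPM (PYK2 KO), without overlap. Most of this sum was Lyz2, at 23540 to 24430 CPM (WT) and 24820 to 25920 CPM (PYK2 KO).

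Positions are from the GENCODE M21 annotation of GRCm38, the mm10 build named in the submitters' processing notes. Ccr1 (ENSMUSG00000025804) is at chr9:123962124-123968692 on the minus strand and Ccr2 (ENSMUSG00000049103) at chr9:124101950-124113557 on the plus strand, 133 kb away. Ccrl2 (ENSMUSG00000043953, chr9:111054486-111057519, minus) and Cx3cr1 (ENSMUSG00000052336, chr9:119901616-120069879, minus) are on the same chromosome. Fpr1 (ENSMUSG00000045551, chr17:17876471-17883940, minus) and Fpr2 (ENSMUSG00000052270, chr17:17887824-17893952, plus) are neighbours that are read away from each other, with 3.88 kb between them. Cxcr4 (ENSMUSG00000045382) is at chr1:128588199-128592293 on the minus strand, Cmklr1 (ENSMUSG00000042190) at chr5:113612354-113650426 on the minus strand and Ptafr (ENSMUSG00000056529) at chr4:132564067-132582683 on the plus strand. The coding sequence lies in 1 block for every member but Cxcr4, which has 2.

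The libraries read the 3′ end of transcripts, and sequence shared with other genes could move counts between them. Runs of at least 50 bases shared with transcripts of other genes were absent for Ccr1, Cxcr4 and Ccrl2. Ccr2 shared such runs with 12 other genes, Fpr1 shared 50 bases with Fpr2, and Fpr2 shared 161 bases with Gm5966 and 94 with Fpr3, both of which were at 0 counts in every library. Ptafr shared runs of up to 85 bases with 102 other genes, Cmklr1 of up to 52 bases with 54 and Cx3cr1 of up to 57 bases with 10. The annotated span of Cx3cr1 overlaps 9 other genes, that of Cmklr1 the antisense gene Gm15736 and that of Fpr2 the gene Fpr3. Counts of these members are uncertain to that extent.

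The 250 bases before the start sites of 3 members are shown because Fpr1 and Fpr2 are adjacent and both had higher CPM in every PYK2 KO library, and Ccr1 had the largest estimated log2 fold change of the 5 tested members, although its genotypes overlapped. They are RefSeq sequences of GRCm38.p6 on the strand of the gene, 5′ to 3′, for Fpr1 at chr17:17883940-17884189 (minus), Fpr2 at chr17:17887574-17887823 (plus) and Ccr1 at chr9:123968693-123968942 (minus). Capitals mark GAGGAA or its reverse complement, the core of sites bound by the myeloid factor PU.1.
Fpr1: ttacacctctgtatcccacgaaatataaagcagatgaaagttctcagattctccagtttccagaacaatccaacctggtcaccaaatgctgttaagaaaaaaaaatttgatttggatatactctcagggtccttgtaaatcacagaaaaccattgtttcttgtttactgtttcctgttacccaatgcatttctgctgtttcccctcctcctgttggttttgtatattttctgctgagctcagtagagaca
Fpr2: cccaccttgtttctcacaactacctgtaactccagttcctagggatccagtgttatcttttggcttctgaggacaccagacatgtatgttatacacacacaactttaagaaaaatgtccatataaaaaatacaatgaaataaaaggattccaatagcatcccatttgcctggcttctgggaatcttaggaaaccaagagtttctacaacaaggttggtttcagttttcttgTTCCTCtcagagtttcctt
Ccr1: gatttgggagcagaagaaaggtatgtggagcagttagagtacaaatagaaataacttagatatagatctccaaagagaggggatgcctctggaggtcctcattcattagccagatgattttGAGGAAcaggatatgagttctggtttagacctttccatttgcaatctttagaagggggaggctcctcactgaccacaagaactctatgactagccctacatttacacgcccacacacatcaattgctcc
The motif GAGGAA, searched on both strands in 300-base windows, was found at -19 from the start site of Fpr2 and at -129 in Ccr1 and was not in the window of Fpr1. It was present in 4 of the 11 windows of the 9 members (also in Cmklr1 and Ptafr) and in 28.3% of 32851 promoter windows of all genes. The AP-1 motif TGANTCA, which does not overlap it, was in 0 of the 11 windows and in 7.81% of all windows. These matches describe letters only, since no binding was measured.

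Per kb of annotated exon, the mean WT levels of normalized CPM ran from 48.2 for Ptafr to 0.317 for Ccr2. Between them came Cxcr4 (26.2), Ccrl2 (8.34), Cmklr1 (4.04), Ccr1 (1.61), Fpr1 (1.11), Fpr2 (0.749) and Cx3cr1 (0.355). Each gene's 3 WT values lay above those of the next gene in this order, except that Cx3cr1 and Ccr2 overlapped. In PYK2 KO BMDMs the order was the same apart from Fpr1 (2.60 CPM per kb) and Ccr1 (2.53 CPM per kb), which changed places and overlapped, and the ranges of Ccr1 and Fpr2 also overlapped. Counts from the 3′ end do not grow with transcript length as reads over whole transcripts do. Without division by length Ccr2 and Cx3cr1, with mean WT levels of 2.14 and 1.60 CPM, lay above Fpr1 (1.47 CPM) and Fpr2 (0.971 CPM).

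**Figure D1:**
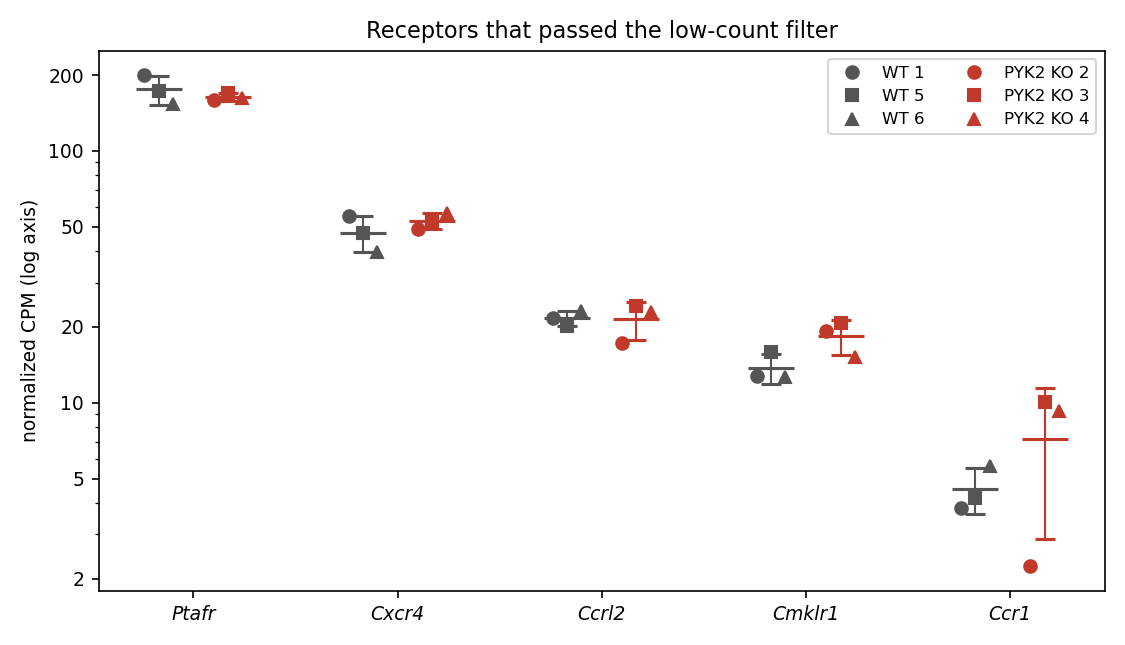
Normalized CPM on a log axis for the 5 receptors that passed the filter on low counts, with 1 point per library, WT in grey and PYK2 KO in red, and bars for the mean and SD of 3 mice. The genotypes overlap for each gene, and PYK2 KO 2 lies far below the other PYK2 KO libraries for Ccr1.

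Of the 9 receptors, 5 passed edgeR's filter on low counts and were compared in a fit on all 9815 genes that passed. In that fit 0.255% of the genes were called at an adjusted p-value under 0.05 (0.112% higher and 0.143% lower in PYK2 KO), and 0 of the 5 receptors were. At an unadjusted p-value under 0.05 there was 1 receptor, Cmklr1, against 6.03% of all genes tested. The genotypes overlapped in all 5, while they did not overlap in 10.2% of all genes tested (5.17% higher and 5.07% lower in PYK2 KO). The median log2 fold change of the 5 was 0.14, with 3 positive and 2 negative values, beside 0.0019 over all genes tested. DESeq2, which gave values for all 9 receptors, called 0 and had 0 at an unadjusted p-value under 0.05. The corresponding numbers were 0 and 1 of the 5 with limma voom, and 0 and 3 of the 9 (Ccr1, Cmklr1 and Fpr1) with edgeR without a filter. That unfiltered fit had 74640 degrees of freedom, against 15.7 in the main fit. Its standard errors and p-values therefore rest on spread shared over genes, with almost none of a gene's own spread between mice.

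Ptafr encodes the receptor of platelet-activating factor, a lipid mediator, and had the most counts. Its level was 199.5, 173 and 153.5 CPM in WT 1, 5 and 6 and 159, 170.4 and 162 CPM in PYK2 KO 2, 3 and 4. All 3 PYK2 KO values lay within the WT range. The means were 175 ± 23.0 CPM (WT) and 164 ± 5.94 CPM (PYK2 KO) (SD, n = 3 mice each). On the log2 scale the difference was -0.10 with a standard error of 0.09 (edgeR adjusted p = 0.938), and its 95% interval ran from 0.811 to 1.07 times the WT level. The variance among the WT libraries alone was 10.1 times that of counting error (chi-square per degree of freedom), against 0.643 in PYK2 KO. Without WT 1 the log2 fold change was 0.0011.

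Cxcr4 encodes the receptor of CXCL12, which holds leukocytes in the marrow and directs their migration. Its level was 55.2, 47.3 and 39.6 CPM in WT 1, 5 and 6 and 49.1, 52.3 and 56.6 CPM in PYK2 KO 2, 3 and 4. PYK2 KO 2 and 3 fell inside the WT range and PYK2 KO 4 just above it. The 95% interval of the edgeR fit ran from 0.915 to 1.33 times the WT level, around a log2 fold change of 0.14. With the first principal component as a covariate the log2 fold change was 0.15 (adjusted p = 0.809 in edgeR). Without WT 6 it was 0.04 and without WT 1 it was 0.27.

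Ccrl2 encodes an atypical receptor that binds chemerin and presents it to other cells without signaling through G proteins. Its level was 21.7, 20.2 and 23.1 CPM in WT 1, 5 and 6 and 17.3, 24.25 and 22.95 CPM in PYK2 KO 2, 3 and 4. The PYK2 KO values lay on both sides of the WT values. The log2 fold change was -0.01 (95% interval -0.35 to 0.34, edgeR adjusted p = 0.999). Its sign turned without further scaling of the libraries (0.00064), and the fit held no direction for this gene.

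Cmklr1 encodes the signaling receptor of chemerin, which draws monocytes and macrophages into tissue. Its level was 12.8, 15.96 and 12.6 CPM in WT 1, 5 and 6 and 19.2, 20.8 and 15.2 CPM in PYK2 KO 2, 3 and 4. PYK2 KO 2 and 3 lay above all WT values and PYK2 KO 4 lay below WT 5. The means were 13.8 ± 1.88 CPM (WT) and 18.4 ± 2.88 CPM (PYK2 KO) (SD, n = 3 mice each). The log2 fold change was 0.41 (standard error 0.19, 95% interval 0.01 to 0.80), with an unadjusted p of 0.0451 and an adjusted p of 0.815 in edgeR, which did not pass. Adjusted p-values over its other fits ran from 0.611 to 1.00. Rarres2, which encodes chemerin itself, had 1 count in 1 library, and Gpr1, which encodes a further chemerin receptor, was at 0 in all 6.

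Ccr1 encodes a receptor of CCL3, CCL5, CCL6 and CCL9. It had 15, 15 and 16 counts in WT 1, 5 and 6 and 7, 29 and 31 counts in PYK2 KO 2, 3 and 4. PYK2 KO 3 and 4 lay above all WT libraries, and PYK2 KO 2 lay below them. The variance among PYK2 KO libraries was 7.95 times that of counting error, against 0.624 in WT. The edgeR estimate on the log2 scale was 0.68 with a 95% interval from -0.19 to 1.54 (standard error 0.41, adjusted p = 0.905). Single libraries set its size, since it was 1.10 without PYK2 KO 2 (unadjusted p = 0.00225, adjusted p = 0.22 in edgeR), 0.38 without PYK2 KO 3 and 0.43 without PYK2 KO 4. With the first principal component as a covariate it was 0.66.

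**Figure D2:**
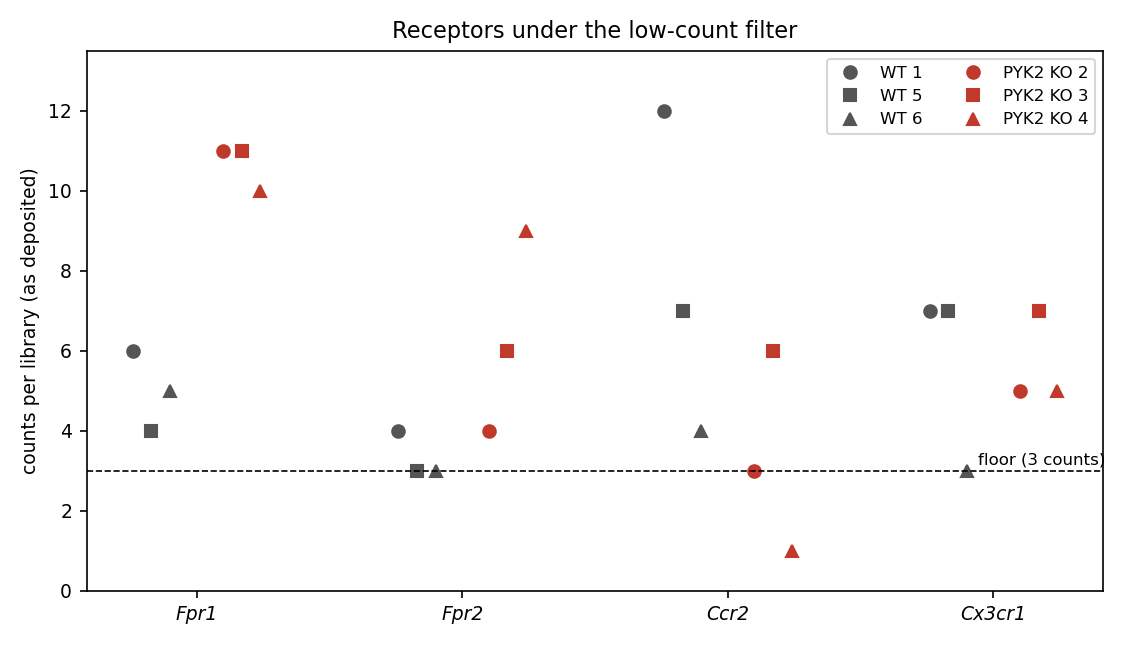
Deposited counts per library for the 4 receptors that the filter on low counts removed, with WT in grey, PYK2 KO in red and the floor of 3 counts as a dashed line. Fpr1 has 4 to 6 counts in WT and 10 to 11 in PYK2 KO libraries, and only Fpr1 is above the floor in every library.

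The other 4 receptors were removed by the filter and are given as counts. A library was at the floor for Ccr2 (2 libraries), Fpr2 (2) and Cx3cr1 (1), and for Fpr1 none was. The genotypes did not overlap in normalized CPM for 2 of the 4, Fpr1 and Fpr2, against 9.78% of the 1441 genes that the filter removed and that had 20 to 50 counts over the 6 libraries, a range chosen after the values were seen. The ratios that follow compare counts summed over 3 libraries with an exact Clopper-Pearson 95% interval, which covers counting error only.

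Fpr1 encodes the high-affinity receptor of N-formyl peptides, released by bacteria and by mitochondria of dying cells, and is known for guiding neutrophils and monocytes. It had 6, 4 and 5 counts in WT 1, 5 and 6 and 11, 11 and 10 counts in PYK2 KO 2, 3 and 4. Every PYK2 KO library lay above every WT library. The pooled ratio of PYK2 KO to WT was 2.36 (interval 1.24 to 4.68), and it ran from 2.10 to 2.56 with 1 library left out at a time. The two-sided exact permutation test on CPM gave p = 0.1, the smallest that 3 against 3 libraries allow. In edgeR's quasi-likelihood test without a filter the log2 fold change was 1.21 (standard error 0.49, unadjusted p = 0.014, adjusted p = 0.545), which did not pass. The standard error and p-values of that fit hold almost none of the gene's own spread between mice. DESeq2 gave an unadjusted p of 0.0757.

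Fpr2 encodes a receptor of formyl peptides, annexin A1 and serum amyloid A. It had 4, 3 and 3 counts in WT 1, 5 and 6 and 4, 6 and 9 counts in PYK2 KO 2, 3 and 4. After scaling to library size every PYK2 KO value lay above the WT values, while WT 1 and PYK2 KO 2 had the same count. The pooled ratio was 2.10 (interval 0.929 to 5.06), so the direction was not settled at this depth (two-sided exact permutation p = 0.1). The unfiltered edgeR fit gave a log2 fold change of 1.03 with an adjusted p of 0.841.

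Neutrophils and monocytes are known to express formyl peptide receptors, and genes of these cells were therefore set beside Fpr1 and Fpr2. The summed level of 6 monocyte genes was 29.4 to 34.7 CPM (WT) and 35.3 to 46.5 CPM (PYK2 KO), without overlap, which also held for the macrophage sum. That of 11 neutrophil genes was 282 to 382 CPM (WT) and 315 to 527 CPM (PYK2 KO). Among the 3 monocyte and 8 neutrophil genes that passed the filter, 0 were called by edgeR, and 1 and 3 had an unadjusted p-value under 0.05, against 0.255% and 6.03% of all genes tested. Single genes did not overlap between genotypes in 10.2% of all genes tested, and no such share was computed for sums over lists. The genes with an unadjusted p-value under 0.05 were Ly6c2, a surface protein of classical monocytes (log2 fold change 0.64), and the granule or calcium-binding genes Mpo (1.19), S100a9 (0.85) and Mmp8 (0.44). Of these, S100a9 and Mmp8 overlapped between genotypes. The smallest adjusted p was 0.537 in edgeR. The other neutrophil genes tested had log2 fold changes of 0.19 (Ngp), 0.10 (S100a8), -0.09 (Ltf), -0.10 (Lcn2) and -0.26 (Camp), and the monocyte gene Chil3 had 0.20. The list medians were 0.14 for neutrophil and 0.20 for monocyte genes, beside 0.0019 over all genes tested. The monocyte list holds Cd177, which neutrophils also express, and Camp stands in both the neutrophil list and that of ligands. Ly6g, a defining neutrophil marker, had 1 count over the 6 libraries. Their part in the Fpr1 and Fpr2 counts was not tested.

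Ccr2 encodes the receptor of CCL2 that recruits classical monocytes from blood into inflamed tissue and tumors. It had 12, 7 and 4 counts in WT 1, 5 and 6 and 3, 6 and 1 counts in PYK2 KO 2, 3 and 4. PYK2 KO 2 and 4 lay below all WT libraries in normalized CPM, and PYK2 KO 3 lay between WT 5 and WT 1. The pooled ratio was 0.48 (interval 0.204 to 1.05), and it ran from 0.278 to 0.674 with 1 library left out (two-sided exact permutation p = 0.3). The unfiltered edgeR fit gave a difference of -1.01 on the log2 scale with a standard error of 0.59 (adjusted p = 0.841). A total of 33 counts did not separate a lower level from an equal one.

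Cx3cr1 encodes the receptor of fractalkine and marks patrolling monocytes and many tissue macrophages. It had 7, 7 and 3 counts in WT 1, 5 and 6 and 5, 7 and 5 counts in PYK2 KO 2, 3 and 4. The sums were equal, at 17 counts in each genotype. The pooled ratio was 1.11 with an interval from 0.53 to 2.30, so a difference of up to about that size was not detectable. Mice with Cre under the Cx3cr1 promoter were used elsewhere in the study, and the labels of these libraries name no Cre allele.

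**Figure D3:**
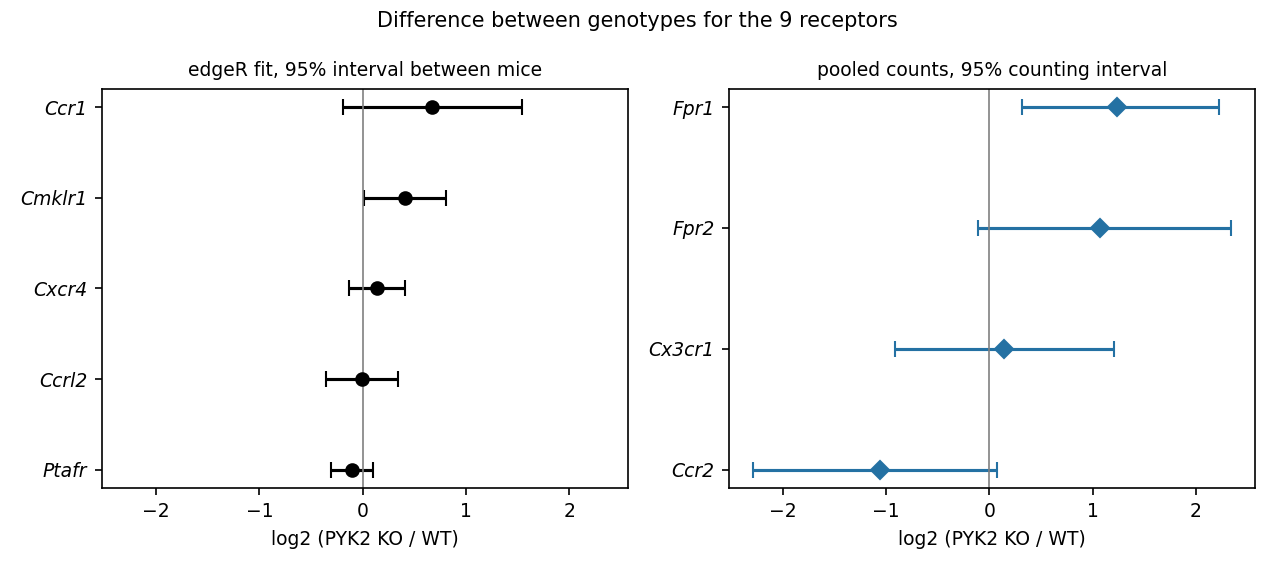
Difference between PYK2 KO and WT BMDMs on the log2 scale, with the 5 tested receptors on the left (edgeR estimate and 95% interval) and the 4 low receptors on the right (ratio of pooled counts and 95% counting interval). The intervals of Cmklr1 (0.01 to 0.80, unadjusted) and Fpr1 lie above 0, and those of the other 7 receptors include it.

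Called genes were found in the list of ligands and ligand handling, which holds ligands of these receptors, enzymes that make or degrade them, and Cd74, a receptor of the CXCR4 ligand MIF. Of 26 genes, 21 passed the filter, of which 2 rose, 1 fell and 18 were not called, where 0.255% of all genes tested were called. At an unadjusted p-value under 0.05 there were 7 of the 21 in edgeR, 4 higher and 3 lower in PYK2 KO, against 6.03% of all genes tested. The median log2 fold change of the list was -0.01. Saa3, an acute-phase serum amyloid A protein of a family that acts on FPR2, rose by 1.09 on the log2 scale, with means of 94.7 ± 6.58 CPM in WT and 201 ± 16.1 CPM in the knock-out (SD, n = 3 mice each). Its edgeR adjusted p was 5.67e-06, and it was called in each of the 6 fits that left out 1 library. Ccl6, a chemokine that binds CCR1, rose by 0.38 on the log2 scale, from a mean of 623 ± 14.6 CPM to one of 809.6 ± 18.7 CPM (SD, 3 mice each). The standard error of this difference was 0.07 and its edgeR adjusted p was 0.0485. All 3 PYK2 KO values of Ccl6 lay above all WT values, and its call was lost in each of the 6 fits that left out 1 library, at log2 fold changes from 0.36 to 0.39. Cd74, the invariant chain of MHC class II, fell by 0.73 on the log2 scale (edgeR adjusted p = 0.000536), with means of 149.8 ± 5.79 and 90.4 ± 7.39 CPM (SD, n = 3 mice each) and a call in each of those 6 fits. The level of Mif itself was 460 ± 39.3 and 480 ± 41.7 CPM (SD, n = 3 mice each).

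The other ligands that reach CCR1 or CCR2 were not called by edgeR among the 9815 genes tested. Ccl2 was called only without a filter (log2 fold change -0.36, edgeR adjusted p = 0.0111), against an adjusted p of 0.912 in the main edgeR fit. Its level was 234.2, 279.9 and 534.5 CPM in WT 1, 5 and 6 and 249.9, 341.2 and 224.4 CPM in PYK2 KO 2, 3 and 4. The genotypes overlapped, and WT 6 stood far above the other libraries. The WT and PYK2 KO means of Ccl3 were 298 ± 39.2 and 248 ± 36.5 CPM, and those of Ccl4 were 260.5 ± 19.8 and 221 ± 26.2 CPM (SD, n = 3 mice each). Their log2 fold changes of -0.27 and -0.24 had unadjusted p-values of 0.03 and 0.0258 and adjusted p-values of 0.739 and 0.725 in edgeR. Ccl9 had a log2 fold change of -0.18, and Ccl2 and Ccl7, the main ligands of CCR2, had -0.36 and -0.42 with intervals that included 0. For Ccl7, too, WT 6 was the highest library, with 36.3, 51.5 and 104.1 CPM in WT 1, 5 and 6. The PYK2 KO 2, 3 and 4 values were 34.0, 69.3 and 37.5 CPM, so the genotypes overlapped. Ccl12 (0.18) and Ccl5 (0.23) were low, at mean WT levels of 3.77 and 2.84 CPM. Ccl8 was at 0 in all 6 libraries, Cxcl12 had 1 count in WT 1, and Cx3cl1 had 0 to 5 counts per library.

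Anxa1 encodes annexin A1, a ligand of formyl peptide receptors, and rested on 1 library. It had 430, 309 and 250 counts in WT 1, 5 and 6 and 312, 344 and 927 counts in PYK2 KO 2, 3 and 4. PYK2 KO 4 stood far above the other 5 libraries. The log2 fold change of 0.81 (adjusted p = 0.555 in edgeR) became 0.20 without PYK2 KO 4, and the gene was called in the fit with the principal component as a covariate and in the fit without a filter. Camp, whose peptide product acts on FPR2, had a log2 fold change of -0.26 that was not called. Of the genes around platelet-activating factor, Pla2g4a, the phospholipase that starts its synthesis, had means of 16.5 ± 2.21 and 21.8 ± 3.11 CPM in WT and PYK2 KO (SD, n = 3 mice each) and was not called (adjusted p = 0.742 in edgeR). The synthetic enzymes Lpcat1 and Lpcat2 had log2 fold changes of -0.04 and -0.01, and the degrading enzyme Pla2g7 had 0.02.

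**Figure D4:**
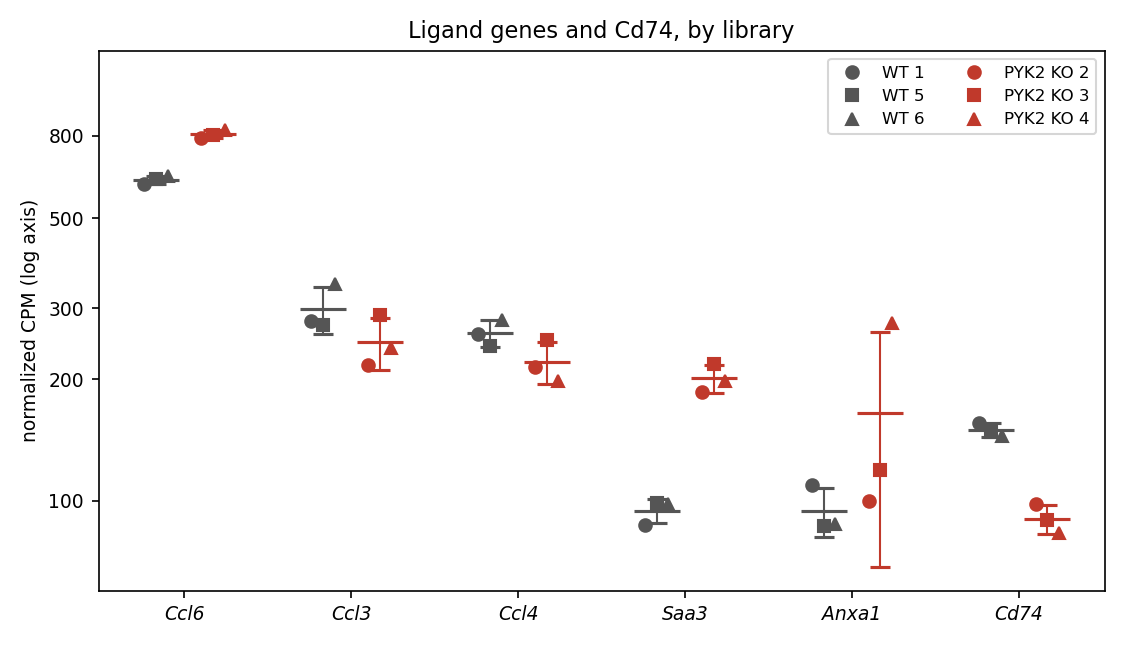
Normalized CPM on a log axis for 5 ligand genes and Cd74, with 1 point per library, WT in grey, PYK2 KO in red, and bars for the mean and SD of 3 mice. Ccl6 and Saa3 are higher and Cd74 is lower in all PYK2 KO libraries, and the mean of Anxa1 in PYK2 KO is raised by PYK2 KO 4.

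Among 38 other chemoattractant receptor genes, 22 were at 0 in every library, 9 had between 1 and 55 counts in all, and 7 passed the filter. None of the 7 was called by edgeR, and 1 had an unadjusted p-value under 0.05 (0.255% and 6.03% of all genes tested), with a median log2 fold change of -0.05. That gene was Cxcr3, the receptor of interferon-induced chemokines, with means of 11.5 ± 1.82 and 8.13 ± 1.31 CPM in WT and PYK2 KO (SD, n = 3 mice each). Its difference of -0.48 on the log2 scale had an adjusted p of 0.824 in edgeR. P2ry6, a receptor of UDP, did not overlap between genotypes (260 ± 7.37 and 237 ± 3.75 CPM; SD, n = 3 mice each), which held for 10.2% of all genes tested, and was not called at a log2 fold change of -0.13. S1pr1, a receptor of sphingosine 1-phosphate, had -0.16 and C3ar1, the receptor of complement C3a, had 0.26.

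Among 23 genes that carry the receptor signal, 22 passed the filter and 0 were called by edgeR, with 2 at an unadjusted p-value under 0.05 (6.03% of all genes tested) and a median log2 fold change of -0.04. Gng5, a G protein gamma subunit, had means of 213 ± 56.9 and 151 ± 6.37 CPM in WT and PYK2 KO (SD, n = 3 mice each). Its difference of -0.50 on the log2 scale had an adjusted p of 0.366 in edgeR and was called in the fit with the principal component as a covariate and in the fit without a filter. Cdc42, a small GTPase of cell polarity, had 0.28, Pik3cg, the catalytic subunit of PI3K gamma, had 0.21, and Elmo1, a partner of the Rac activator Dock2, had 0.68 at a mean WT level of 2.50 CPM. Gnai2, the main Gi subunit of leukocytes, was at 2200 ± 189 and 2156 ± 287 CPM (SD, n = 3 mice each).

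Among 26 symbols of desensitization and endosomal sorting, 24 were in the table and 20 passed the filter, with 0 called by edgeR, 1 at an unadjusted p-value under 0.05 (6.03% of all genes tested) and a median log2 fold change of 0.01. That gene was Rgs1, which shortens Gi signaling, with means of 29.8 ± 0.909 and 36.6 ± 2.92 CPM in WT and PYK2 KO (SD, n = 3 mice each). Its difference of 0.30 on the log2 scale had an adjusted p of 0.778 in edgeR. The arrestin gene Arrb2 had -0.14, and the regulators Rgs2 and Rgs10 had 0.35 and -0.14. Itch, which tags CXCR4 with ubiquitin, had -0.09, and Hgs, which sorts tagged receptors to lysosomes, had 0.02.

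**Figure D5:**
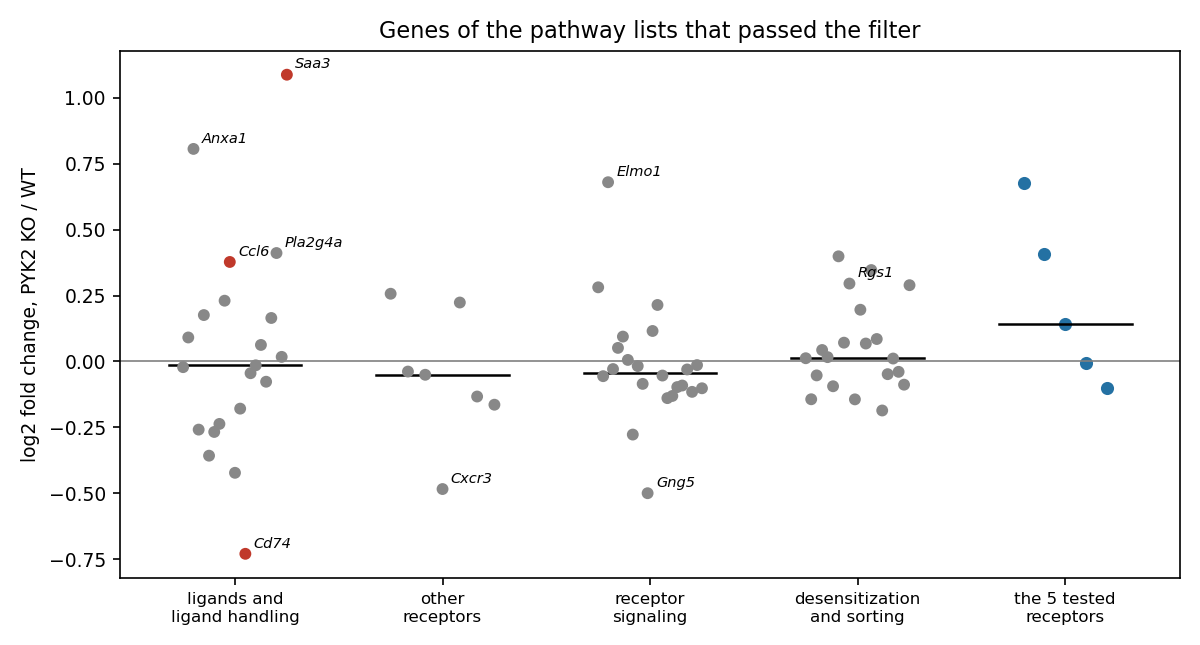
Log2 fold change of PYK2 KO against WT for each gene that passed the filter in 4 pathway lists (red where called, grey otherwise) and for the 5 tested receptors (blue), with the median of each list as a line. The medians of the 4 lists lie between -0.05 and 0.01, and called genes appear in the list of ligands, namely Saa3, Ccl6 and Cd74.

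The genes whose log2 CPM over the 6 libraries was most like that of a tested receptor differed from receptor to receptor. The highest Pearson's r among the other tested genes was 0.99 in each case: Prune2 and Pdhb for Ccr1, Mib1 and Adap2 for Cxcr4, Cisd3 and Psmc6 for Cmklr1, Abcc4 and Mfsd6 for Ccrl2, and Ethe1 and Tmem86a for Ptafr. With 6 libraries, between 53 and 145 genes had r over 0.9 with a given receptor, so these names describe the libraries only. No gene was among the nearest 2 of more than 1 receptor.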

How the data were processed

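The RNA of BMDM cultures from 6 mice, 3 of each genotype, was sequenced. The authors deposited raw counts per gene, made from bulk MARS-seq libraries with the UTAP pipeline. The submitters' processing notes name cutadapt, STAR and mm10, and versions and the collapse of molecular identifiers are not given in the sources used here. Column names gave the genotype and a replicate number for each library.

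The test was edgeR's quasi-likelihood F test (version 4.0.16, under R 4.3.3) on genotype alone, after filterByExpr and TMM (Benjamini-Hochberg adjustment over all genes tested, threshold 0.05). Standard errors were the log2 fold change divided by the square root of F. Normalized CPM used the effective library sizes of tested genes, and log2 CPM a prior count of 2. Alternatives were other scalings and filters, DESeq2 1.42.0, limma 3.58.1 (voom), the likelihood ratio test, a covariate holding the first principal component within genotypes, and leaving out each library. The edgeR fit was also run on counts simulated for genes that passed the filter, with dispersions that edgeR had estimated. That run does not bear on the low receptors or the fit without a filter, and its outcome is not given here.

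The receptors, pathway lists and marker lists were chosen with earlier results of these data known. Named genes were every receptor, and in each pathway list the called genes, the 4 with the smallest unadjusted p and the ligands that passed the filter, plus the 2 genes most like each tested receptor. Others named (Gnai2, Itch, Hgs, Lpcat1 and Lpcat2, Pla2g4a, Pla2g7, marker genes and untested genes) were chosen after their values were seen. Lists of dendritic, B, T and NK, mast, erythroid and stromal cells had 1, 1, 0, 0, 0 and 0 genes that passed the filter, with 0 called. Some items are not reported here.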

Additional observations from a re-analysis of the deposited data

How the results depend on the processing

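No paired analysis was made, since the labels name no pairs and no replicate number occurs in both genotypes (1, 5 and 6 are WT, 2, 3 and 4 are PYK2 KO). In each of the 9 alternatives and 6 fits without 1 library, 0 receptors were called, and their smallest adjusted p was 0.22, for Ccr1 without PYK2 KO 2. The number of genes called (25) was 159 without a filter, 45 with the likelihood ratio test and 62 with the principal component as a covariate, and from 14 (without PYK2 KO 4) to 34 with 1 library left out, with 15 without WT 5 or PYK2 KO 2. Calls of the fit without a filter hold almost none of a gene's own spread between mice. The log2 fold change of Ccrl2 reversed with upper-quartile scaling (0.0017) and without scaling (0.00064) and ran from -0.10 to 0.12 with 1 library left out. It was 0.04 without WT 6. That of Ptafr ran from -0.19 to 0.0011, its value without WT 1. With a floor of 10 counts, 2 receptors (Cx3cr1 and Fpr2) were at the floor in every library, against 0. Without a filter 5 ligand genes were called, with Anxa1 and Ccl2 added, and 1 signaling gene, Gng5, which together with Anxa1 was also called with the covariate (4 ligand genes). With 1 library left out 2 ligand genes were called, Saa3 and Cd74. The causes were not tested. Depth limits Ccr2, Cx3cr1, Fpr1 and Fpr2, at 29 to 47 counts each over 6 libraries.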
